A study of Homo sapiens with 32 samples.

Results

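The microRNA rows mir-7, mir-1179 and mir-3529 were followed in small RNA libraries of 293T cells, a human embryonic kidney line. They are 3 of the 1513 miRNA precursor rows in the deposited read-count table and all 3 were found. The rows were chosen by name, but with their counts in these libraries already known, in particular the response of mir-7 to genotype and to knockdown. Every difference below is therefore a description of these clones, and no p-value given for these rows, from any test, is independent evidence.

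The 32 libraries came from 8 clones, each given 4 short hairpin RNA (shRNA) vectors. Wild-type clones were numbered 52, 55, 57 and 67. Deletion clones 30, 34, 42 and 43 carried the genotype DGCR8 delta103-126Q, a prime-edited deletion of the reported binding site of ERH. The vectors were control shRNA 1 and 2, which are non-targeting, and 2 shRNAs against ERH. All cells, controls included, were transiently transfected, kept in 2 µg/ml puromycin from 24 h, and sorted on day 5 for the fluorescent marker on the vector. A difference between genotypes rests on 4 clones each, and the edit cannot be told apart from other differences between these clones. Small RNA counts do not show ERH mRNA or the edited DGCR8 sequence, so neither label has a check here. Of the miRNA lists used to check the cell type, the embryonic kidney rows (HOX-embedded and MIR17HG miRNAs) summed to between 110954 and 299647 CPM (counts scaled to 1000000 per library) in every clone, against at most 2364 CPM for blood, 599 CPM for the liver row mir-122 and 9903 CPM for the neural rows.

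DGCR8 and the nuclease DROSHA form the Microprocessor, which cuts hairpins out of primary transcripts, and ERH is a small nuclear protein that binds DGCR8. miR-7 is an ancient miRNA, conserved from worms and flies to humans, and is best known from neurons and from endocrine cells such as those of the pancreatic islets, where it restrains growth factor signalling. In neurons the circular RNA CDR1as carries many miR-7 sites. Its best-studied hairpin lies inside the gene of the splicing factor HNRNPK, and its maturation has been reported to be held back in non-neural cells by proteins that bind the hairpin loop.

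The mir-7 row pools 3 loci whose 5p product is the same, so reads of that arm cannot be assigned to a locus. MIR7-1 lies on chromosome 9 (83969748 to 83969857, minus strand, GRCh38, GENCODE release 29) inside HNRNPK, in an intron of 6 annotated transcripts and in an exon of 1. MIR7-2 lies on chromosome 15 (88611825 to 88611934, plus strand) in no annotated host gene. MIR7-3 lies on chromosome 19 (4770670 to 4770779, plus strand) in an intron of the lincRNA MIR7-3HG. MIR1179 (chromosome 15, 88608107 to 88608197) is on the strand of MIR7-2, with 3627 bases between the hairpins. MIR3529 (chromosome 15, 88611847 to 88611924) is on the opposite strand and all of its 78 bases overlap MIR7-2. Within 10 kb of MIR7-2 these are the only other miRNA genes in the annotation, and there are none that close to MIR7-1 or MIR7-3. The mature sequences, from RefSeq (GRCh38.p14, 5′ to 3′), are shown because they decide which reads can enter which row, with the seed (bases 2 to 8) in capitals:
miR-7-5p: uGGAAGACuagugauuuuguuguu
miR-7-1-3p: cAACAAAUcacagucugccaua
miR-7-2-3p: cAACAAAUcccagucuaccuaa
miR-1179: aAGCAUUCuuucauugguugg
miR-3529-5p: aGGUAGACugggauuuguuguu
miR-3529-3p: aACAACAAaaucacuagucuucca

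miR-3529-3p is the exact reverse complement of miR-7-5p over all 24 bases. A read of miR-7-5p can therefore enter the mir-3529 row only if its strand is ignored, and whether the counting used strand was not stated in the sources used here. The miR-7 3p arms of loci 1 and 2 share a seed and are identical at 18 of 22 positions. The seed of miR-7-5p is held by no other mature entry in the RefSeq table. The seed of miR-1179 is likewise its own, and that of miR-3529-5p is shared with miR-379-5p. The table does not split arms, so the 5p and 3p shares of each row are not known. The chromosome 15 neighbours are shown as hairpins, with the annotated mature arms in capitals:
MIR1179: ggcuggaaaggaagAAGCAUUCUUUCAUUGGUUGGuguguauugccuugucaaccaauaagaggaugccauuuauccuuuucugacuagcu
MIR7-2: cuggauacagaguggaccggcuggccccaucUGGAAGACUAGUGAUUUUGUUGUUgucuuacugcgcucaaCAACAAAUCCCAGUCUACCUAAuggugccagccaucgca

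The 3 rows differed greatly in depth. Over all libraries mir-7 collected 735124 counts, between 3890 and 73628 in each, out of library totals of 1318923 to 6222790 miRNA counts. The row mir-1179 collected 364 counts, with at most 36 in a library and 0 in 1 of the 32. The row mir-3529 collected 20 counts, in 7 of the 32 libraries. Counting error is thus small beside the clone-to-clone spread for mir-7 and a large part of each value for mir-1179, and mir-3529 passed the filter on low counts in none of the comparisons. Values are given below as CPM on the TMM scale, which balances libraries on the bulk of their miRNAs. Except where a vector is named, they are from counts summed over the 2 vectors of an arm, so that each clone gives 1 value per arm.

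With ERH present, mir-7 was about 3-fold higher in cells that lack the ERH binding site of DGCR8. Under control shRNAs it stood at 4220.3, 2835, 3695 and 3032 CPM in wild-type clones 52, 55, 57 and 67. In deletion clones 30, 34, 42 and 43 it stood at 12818, 11906, 9024 and 7782 CPM. The genotypes did not overlap, the lowest deletion clone lying above the highest wild-type clone. Means were 3445 ± 634 CPM (SD, n = 4) and 10382 ± 2371 CPM (SD, n = 4). The log2 fold change was 1.59 ± 0.21 (SE), with a 95% interval from 1.14 to 2.04 (edgeR quasi-likelihood test, adjusted p = 0.00210 over 536 rows). This was the smallest p of all 536 rows, while 28 rows had a larger increase. Among the 86 rows with a mean of at least 1000 CPM its increase was the largest, ahead of mir-576 at 1.15, and the median of those rows was -0.43. Of the 2 members tested, mir-7 was called higher and mir-1179 was not. By the same rule 18.8% of all rows tested were called higher, 7.09% lower and 25.9% in either direction, and in 20.0% of them every deletion clone lay above every wild-type clone. In these pools of sorted cells, a higher level in each cell and a larger share of cells with a high level cannot be told apart. The summed embryonic kidney rows moved with genotype too, from 215205 to 299647 CPM in wild-type and from 132724 to 199933 CPM in deletion clones, with all 7 rows detected in both. The 6 blood rows, all detected, summed to between 289 and 453 CPM in wild-type and between 264 and 2364 CPM in deletion clones. The part of these shifts in the mir-7 result was not tested.

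Each control vector alone showed the same order, in the same 8 clones, so the vectors do not replicate the genotype difference. With control shRNA 1 wild-type clones ranged from 2259 to 2885 CPM and deletion clones from 7328 to 11927 CPM. With control shRNA 2 the ranges were 2919 to 5079 CPM and 6961 to 14892 CPM. How many other rows separated with a single vector was not computed. In edgeR 85 of 443 rows were called higher and 41 lower with control shRNA 1 alone. With control shRNA 2 alone 22 of 453 rows were called higher and 13 lower. In wild-type clones control shRNA 2 gave more mir-7 than control shRNA 1 in 4 of 4, by between 0.025 and 0.87 on the log2 scale, and in deletion clones in 3 of 4. Over all 8 clones that difference was 0.27 ± 0.13 (SE, edgeR adjusted p = 0.551) and was not called. No row was: 0.00% of 571 rows passed between the control vectors in edgeR, with 48 at an unadjusted p under 0.05, and 1 row passed in DESeq2.

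The increase was also present without reference to the other miRNAs. A fixed amount of spike-in RNA had been added to the total RNA of each library. In wild-type clones under control shRNAs there were 0.36 ± 0.07 (SD, n = 4) mir-7 counts per spike-in count, between 0.284 and 0.441. In deletion clones there were 1.56 ± 0.80 (SD, n = 4), between 0.843 and 2.60, again with no overlap. The share of all rows without overlap was not computed on this scale. In the edgeR fit with spike-in scaling 134 of 536 rows were called higher and 0 lower, so a rise on it was not particular to mir-7. As a share of all miRNA counts mir-7 made up between 0.224% and 0.338% in wild-type and between 0.793% and 1.42% in deletion clones. Its rank by count in a library lay between 41 and 68 in wild-type control libraries and between 12 and 32 in deletion control libraries. How many other rows separated by share or by rank was not computed. In the edgeR fit with total miRNA scaling 154 of 536 rows were called higher and 4 lower, so a rise in share was not particular to mir-7 either.

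**Figure D1:**
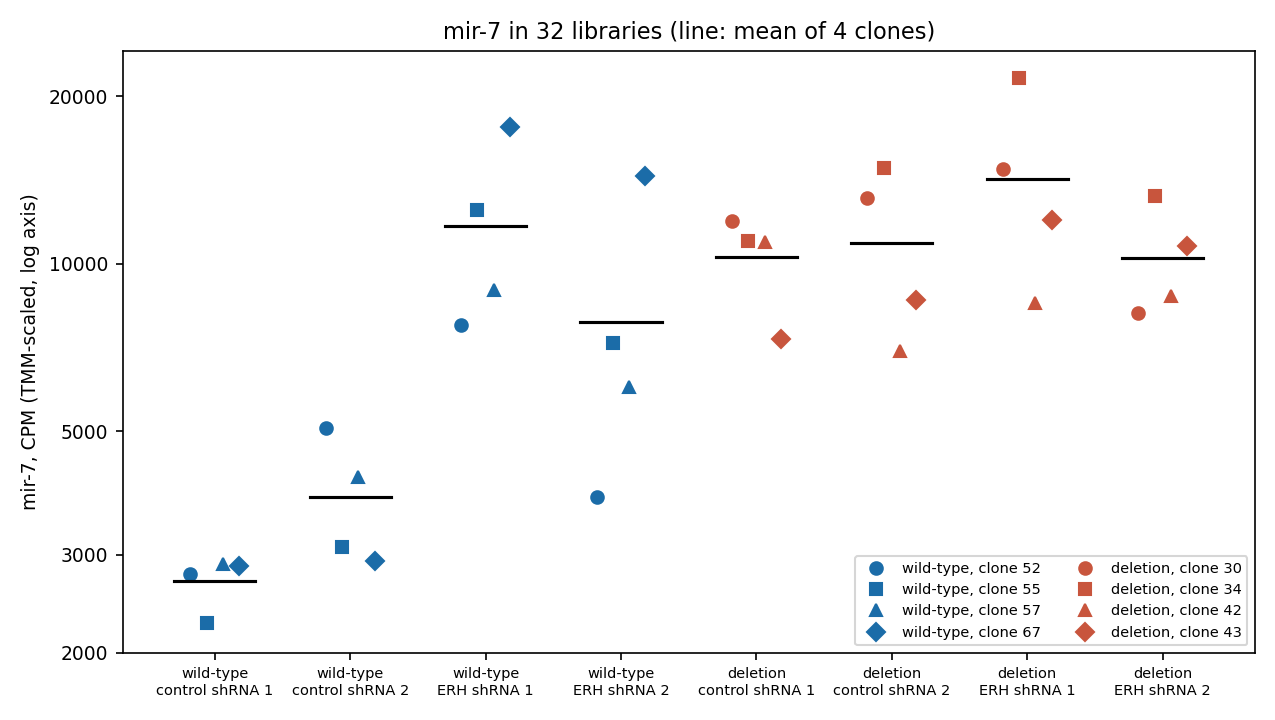
The level of mir-7 in all 32 libraries, in CPM on a log axis, is plotted by genotype and vector, with 1 point per clone and a line at the mean of 4 clones. Wild-type control libraries lie between 2259 and 5079 CPM, and every deletion library lies above them, from 6961 CPM upward.

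ERH knockdown raised mir-7 in wild-type clones, in a comparison that shares its wild-type control libraries with the deletion comparison above. From the control levels above it went to 6398, 10335, 6976 and 16681 CPM in clones 52, 55, 57 and 67. The 2 arms did not overlap, since the lowest ERH value lay above the highest control value. The share of all rows without overlap of the arms was not computed. The log2 changes of the single clones were 0.60, 1.87, 0.92 and 2.46, upward in 4 of 4 but of very different size. The mean under ERH shRNAs was 10097 ± 4719.7 CPM (SD, n = 4), and the fitted log2 fold change 1.45 ± 0.24 (SE, 95% interval 0.94 to 1.96, edgeR adjusted p = 0.000252 over 613 rows). Of the members mir-7 alone was called, against 20.9% of all rows called higher, 10.4% lower and 31.3% in either direction, and 27.7% of all rows higher in all 4 clones. By size of increase mir-7 ranked 35 of the 613 rows. Among the 86 rows with at least 1000 CPM the increase was again the largest, the next being mir-590 at 0.86, and the median of those rows was -0.34. The embryonic kidney rows of these clones summed to between 157990 and 218543 CPM under ERH shRNAs, below most of their control range, and the blood rows to between 177 and 512 CPM. Their part in the result was not tested.

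Both ERH vectors raised mir-7 in wild-type clones, to unequal extents. ERH shRNA 1 libraries held between 7754 and 17640.3 CPM in wild-type clones, all above both control vectors. ERH shRNA 2 libraries held 3818, 7222, 6006 and 14395 CPM in clones 52, 55, 57 and 67. Clone 52 under ERH shRNA 2 thus lay below its own control shRNA 2 library, at 5079 CPM. Tested alone against the sums of both control vectors, vector 1 gave a log2 fold change of 1.72 ± 0.23 (SE, edgeR adjusted p = 0.000492) and vector 2 gave 1.07 ± 0.28 (SE, edgeR adjusted p = 0.00581). These single-vector fits share their control libraries.

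In deletion clones ERH knockdown gave no called change of mir-7. Under ERH shRNAs clones 30, 34, 42 and 43 stood at 11308, 15842, 8613 and 10415 CPM, a mean of 11545 ± 3077 CPM (SD, n = 4). The change was upward in clones 34 and 43, by 0.41 and 0.42 on the log2 scale. It was downward in clones 30 and 42, at -0.18 and -0.07. The fitted log2 fold change was 0.11 ± 0.12 (SE), with a 95% interval from -0.16 to 0.38 (edgeR adjusted p = 0.585 over 633 rows). The upper end of that interval lies below the lower end of the wild-type interval. No member was called in this comparison, where 10.3% of all rows were called in either direction, 4.27% were called higher, and 19.9% were higher in all 4 clones.

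**Figure D2:**
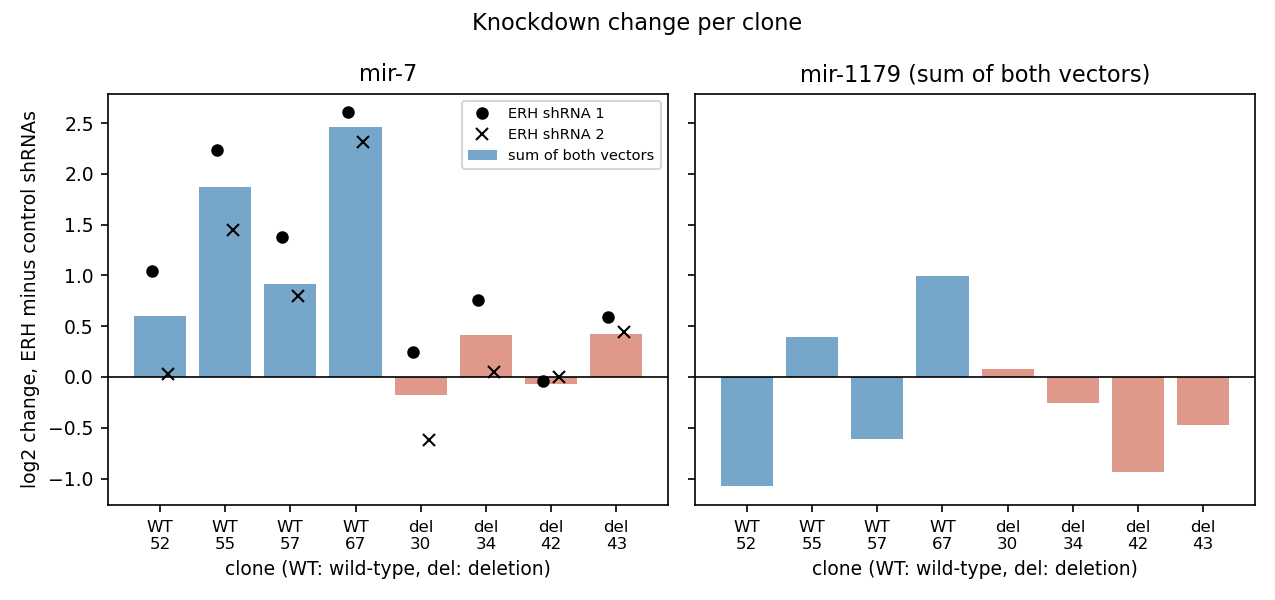
Bars give the log2 change from control to ERH shRNAs in each clone, for mir-7 on the left and mir-1179 on the right, wild-type clones in blue and deletion clones in red. Circles and crosses show ERH shRNA 1 and 2 alone for mir-7, each against the mean of the clone's control libraries. The 4 wild-type bars of mir-7, from 0.60 to 2.46, all stand above the 4 deletion bars, from -0.18 to 0.42, while mir-1179 has bars on both sides of 0 in both genotypes.

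The genotype difference in knockdown response was then fitted as an interaction over all 16 sums. For mir-7 the response in deletion clones was lower than in wild-type clones by 1.26 on the log2 scale (interaction -1.26 ± 0.32, SE, 95% interval -1.94 to -0.59). The unadjusted p was 0.00115, ranked 9 of 667 rows, and the edgeR adjusted p of 0.0851 did not pass 0.05. No row passed in edgeR (0.00% of 667, with 127 at an unadjusted p under 0.05), and DESeq2 called 16 rows, mir-7 among them at an adjusted p of 0.0193. The 4 deletion clones all responded less than the 4 wild-type clones, which held for 8.85% of rows. Over all 667 rows the interaction of mir-7 ranked 30 from the bottom. Among the 86 rows with at least 1000 CPM it was the lowest, where the median was 0.20. The call moved with the settings: 6 of 16 alternatives passed the threshold, with adjusted p between 6.86e-09 and 0.523, and without clone 67 the value was -0.99.

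**Figure D3:**
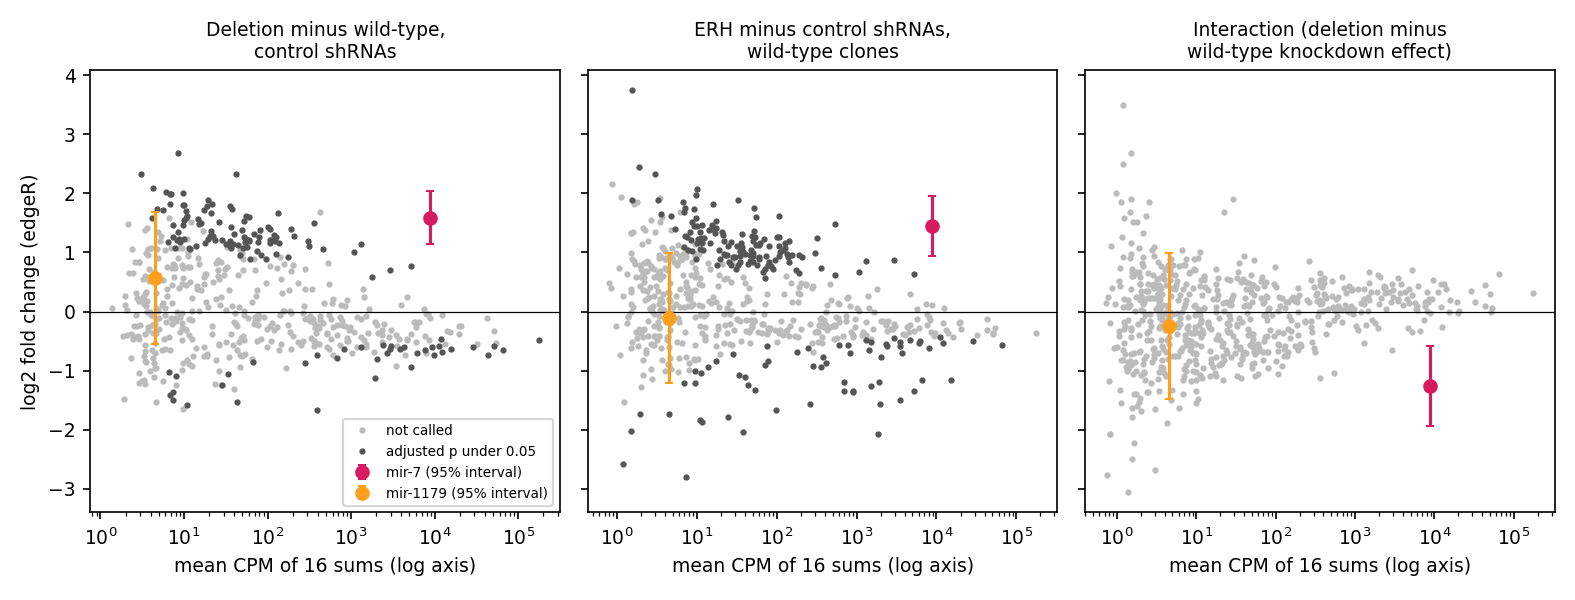
Each point is a miRNA row, with its mean CPM over 16 sums on a log axis and its log2 fold change for the deletion under control shRNAs, the knockdown in wild-type clones and the interaction. Dark points have an adjusted p under 0.05, and bars on mir-7 and mir-1179 are 95% intervals. The point of mir-7, at 8867 CPM, stands at 1.59, 1.45 and -1.26, above every other row of at least 1000 CPM in the first and second panels and below them in the third, and the intervals of mir-1179 span 0 in all 3 panels.

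Under ERH shRNAs the genotypes overlapped for mir-7, with wild-type clones between 6398 and 16681 CPM and deletion clones between 8613 and 15842 CPM. The log2 fold change of the deletion was then 0.20 ± 0.31 (SE, 95% interval -0.48 to 0.88, edgeR adjusted p = 0.776 over 569 rows). This interval does not show that the levels were equal, but it excludes the 1.59 seen under control shRNAs. In 7.73% of rows every deletion clone still lay above every wild-type clone, and mir-7 was not among them. No row was called in this comparison (0.00%), with 87 rows at an unadjusted p under 0.05 and 8 called by DESeq2. Wild-type clones under ERH shRNAs also overlapped deletion clones under control shRNAs, at means of 10097 and 10382 CPM. Ordered by mean level, wild-type controls stood lowest, and the other 3 groups followed with overlapping ranges. Over all 8 clones the knockdown gave mir-7 a log2 fold change of 0.75 ± 0.20 (SE, edgeR adjusted p = 0.00537), upward in 6 of 8 clones, where 20.1% of 667 rows were called higher, 16.5% lower and 36.6% in either direction. That call was lost with ERH shRNA 2 alone, at 0.44 (edgeR adjusted p = 0.113), without clone 55, at 0.59 (edgeR adjusted p = 0.0570), and without the clone block, at 0.63 (edgeR adjusted p = 0.186).

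For mir-1179, the neighbour of MIR7-2 on the same strand, no comparison was called at the depth available. Under control shRNAs wild-type clones 52, 55, 57 and 67 had summed counts of 14, 5, 25 and 9, or 3.62, 1.32, 9.17 and 2.35 CPM. Deletion clones 30, 34, 42 and 43 had 31, 30, 23 and 42 counts, or 5.98, 5.06, 5.15 and 7.31 CPM. Clone 57 lay above all deletion clones and the other 3 wild-type clones below them. The log2 fold change of the deletion was 0.56 ± 0.52 (SE, edgeR adjusted p = 0.436), with a 95% interval from -0.55 to 1.68. That interval holds both no change and the 1.59 of mir-7, so the rows could not be told apart by it. Leaving out clone 57 gave 1.33 and leaving out clone 55 gave 0.21, neither called.

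Under ERH shRNAs mir-1179 stood at 1.5, 1.86, 5.86 and 5.07 CPM in clones 52, 55, 57 and 67, which had summed counts of 6, 7, 47 and 30. In deletion clones 30, 34, 42 and 43 it stood at 6.31, 4.16, 2.50 and 5.15 CPM, from 29, 24, 12 and 30 counts. The knockdown changed it by -0.11 ± 0.52 (SE, edgeR adjusted p = 0.886) in wild-type and by -0.45 ± 0.32 (SE, edgeR adjusted p = 0.377) in deletion clones. Clones went both ways, with 2 of 4 wild-type and 1 of 4 deletion clones higher. The 95% interval in wild-type clones ran from -1.20 to 0.98 and overlapped the 0.94 to 1.96 of mir-7, so the responses of the rows were not shown to differ by these fits. The interaction was -0.25 ± 0.58 (SE, edgeR adjusted p = 0.862). Under ERH shRNAs the deletion gave 0.30 ± 0.50 (SE, edgeR adjusted p = 0.779).

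The ratio of mir-7 to mir-1179 was taken from the summed counts of a clone and arm. This needs no scaling, but the deeper of the 2 summed libraries weighs more. The ratio compares the pooled row with the neighbour of a single locus. With control vectors its log2 value averaged 9.99 ± 0.97 over the wild-type clones (SD, n = 4). The deletion clones averaged 10.8 ± 0.51 (SD, n = 4), and the ranges overlapped. It was higher under ERH shRNAs in every wild-type clone, by 1.80, 1.41, 1.58 and 1.40 in clones 52, 55, 57 and 67, a mean of 1.55 ± 0.19 (SD, n = 4). These 4 changes are close together, while the mir-7 changes of the same clones ran from 0.60 to 2.46. The mir-1179 sums under control and ERH shRNAs were 14 and 6, 5 and 7, 25 and 47, and 9 and 30 counts. Counting error is large at such counts, so the closeness of the ratio changes cannot be read as a shared response of the rows. The CPM of mir-1179 was lower with ERH shRNAs in clones 52 and 57 and higher in clones 55 and 67. In deletion clones the ratio changed by -0.26, 0.69, 0.95 and 0.92 in clones 30, 34, 42 and 43, a mean of 0.57 ± 0.57 (SD, n = 4). All 4 deletion clones thus lay below all 4 wild-type clones, as they did for mir-7 itself, which was chosen with that difference known. No share over other rows was computed for such ratios. These ratios rest on as few as 5 counts of mir-1179 and are given without a test. With vector 2 of each arm alone the wild-type mean was 2.24. Under ERH shRNA 2 alone mir-1179 had 2, 0, 36 and 3 counts in clones 52, 55, 57 and 67. The ratio of clone 55 there rests on the pseudocount of 0.5, so the larger mean cannot be read as a larger change.

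**Figure D4:**
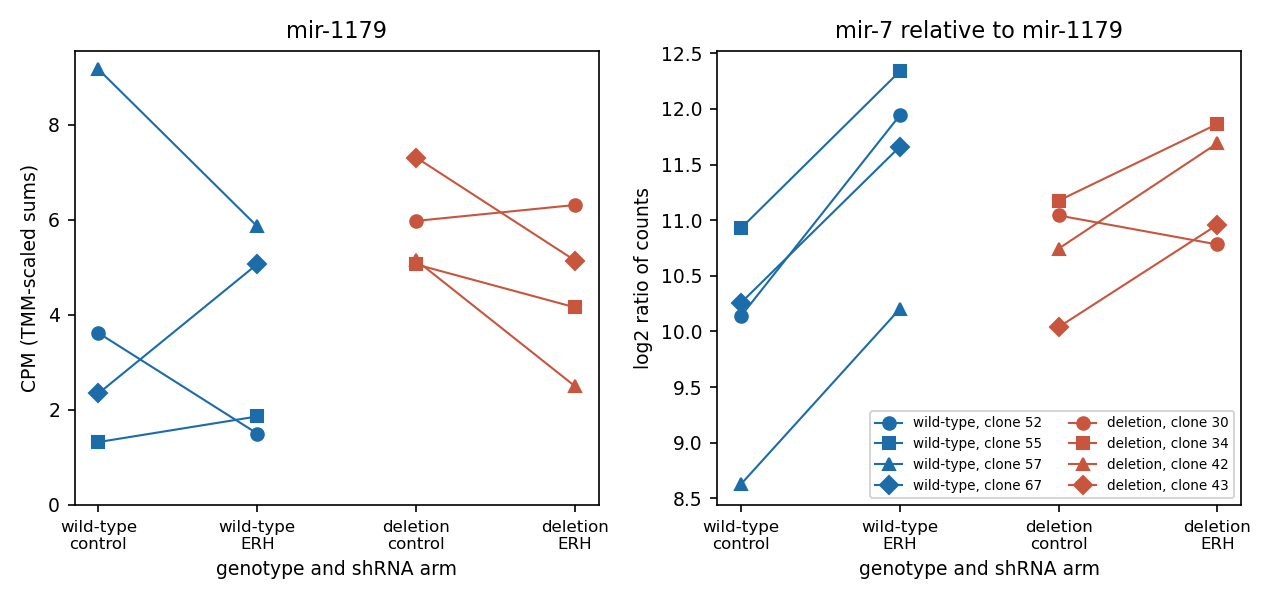
The left panel gives mir-1179 in CPM per clone and arm, and the right panel the log2 ratio of mir-7 to mir-1179 counts, with a line joining the 2 arms of a clone. Lines of mir-1179 cross in wild-type clones, while all 4 wild-type ratio lines rise, by 1.40 to 1.80, and 3 of 4 deletion lines rise by 0.69 to 0.95.

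mir-3529, opposite MIR7-2, was at the edge of detection in every group. It had 5 counts in the 8 wild-type control libraries, 3 in the wild-type ERH libraries, 3 in the deletion control libraries and 9 in the deletion ERH libraries. Each group had 6 libraries at 0 except wild-type ERH, with 7. A library with 0 counts allows up to 3 counts, which is between 0.719 and 2.27 CPM over the 25 libraries at 0 and covers counting error only. No difference was detectable at this depth. The single highest values were 5 counts in deletion clone 43 and 4 in deletion clone 34, both under ERH shRNA 1, and 4 in wild-type clone 67 under control shRNA 1. The last of these libraries had 5217 mir-7 counts and the first 32092. Over all libraries there were 27.2 counts of mir-3529 for each 1000000 of mir-7. Its seed partner mir-379 was also sparse, with 48 counts in all and 15 libraries at 0, and was not tested.

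Other hairpin pairs on opposite strands of a locus were taken from a list of 22 rows (11 pairs), all in the table. Their balance varied widely. The row opposite mir-423, mir-3184, had 38 counts to 178231, the row opposite mir-24, mir-3074, 5112 to 99386, and mir-3065 had 23464 against 21588 for mir-338. Of the 14 rows tested for the deletion under control shRNAs, 0 were higher and 2 lower, mir-103a at -0.73 and mir-24 at -0.60, beside 18.8% and 7.09% of all rows, with a list median of -0.08 against -0.03 for all rows. For the knockdown in wild-type clones 2 were higher and 4 lower of 14, beside 20.9% and 10.4% of all rows, with a median of -0.42 against 0.09. Over all 8 clones 2 were higher and 6 lower of 15, beside 20.1% and 16.5% of all rows. In both comparisons mir-24 fell and mir-3074, on the other strand, was not called.

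Rows known for neural or endocrine tissue, where miR-7 is best known, were not called higher alongside it. Of 12 listed rows, 11 were tested for the deletion under control shRNAs, with 0 higher and 1 lower, where 18.8% and 7.09% of all rows were. The row that fell was mir-204, from 49.3 ± 16.6 to 20.9 ± 11.2 CPM (SD, n = 4). For the knockdown in wild-type clones 0 were higher and 1, mir-204 again, lower of 12, beside 20.9% and 10.4% of all rows. The list medians were -0.30 in both comparisons, against -0.03 and 0.09 for all rows. Over all 8 clones the knockdown gave 0 higher and 6 lower of 12, beside 20.1% and 16.5% of all rows. The row mir-671, whose miRNA directs cleavage of CDR1as, was not called in any comparison, at 0.10 for the deletion and 0.09 for the knockdown in wild-type clones.

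By correlation of log2 CPM over the 16 sums, the rows most like mir-7 among 366 candidates were mir-548aq (r = 0.90), mir-548h (r = 0.89) and mir-1255b (r = 0.88). These sums share clones and the 4 group levels, so the values describe likeness only. The row mir-548h went from 146 ± 11.8 to 316 ± 33.9 CPM (SD, n = 4) between the genotypes under control shRNAs. With ERH shRNAs the wild-type clones reached 349.9 ± 55.8 CPM (SD, n = 4) for it. Its interaction was -0.69, that of mir-548aq -0.76 and that of mir-1255b -0.78, all smaller in size than the -1.26 of mir-7, and none was called in edgeR. For mir-1255b the estimated deletion and wild-type knockdown effects were 1.72 and 1.53, beside 1.59 and 1.45 for mir-7. That row stood at only 5.63 ± 1.17 CPM (SD, n = 4) in wild-type controls. The SE of its deletion effect was 0.37, so the 2 rows cannot be ordered by it. The estimates of mir-548aq, 1.26 and 1.15, and of mir-548h, 1.12 and 1.24, were below those of mir-7. The rows nearest to mir-1179 were mir-548i (r = 0.68), mir-5000 (r = 0.59) and mir-1248 (r = 0.53), weak values at its counts. No such value is given for mir-3529, which was at 0 in 25 libraries.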

How the data were processed

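Small RNA was sequenced from total RNA of 32 samples with the QIAseq miRNA kit, 400 ng being mixed with 4 spike-in RNAs and 100 ng used, per the labels' protocols. The deposited table gives raw read counts per precursor, called total read counts in its header, and 4 spike-in rows. SAMtools is named in the submitters' processing notes. The aligner, build, annotation, strand setting and use of molecular identifiers are not given in the sources used here; amplification copies may thus be counted.

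The members, lists and tests were chosen with earlier results of these data known. Counts of the 2 vectors of an arm were summed per clone (16 sums). edgeR 4.0.16 (R 4.3.3) was run over all miRNA rows with filterByExpr, TMM and the quasi-likelihood test, with Benjamini-Hochberg adjustment at 0.05 over all rows. Knockdown and interaction fits had the clone as a block, genotype fits none, and the control vectors were compared as single libraries. The labels give every clone all vectors, and deviations of a clone's arms from their group means correlated at 0.45 to 0.85. Genotype p-values measure the spread of levels between clones. In fits blocked by clone, p-values measure how far the changes within clones differ. The log2 CPM used a prior count of 2, and ratios a pseudocount of 0.5. No 2 libraries of a group agreed within sampling noise (48 pairs, chi-square of at least 75.4 per degree of freedom), and 0 columns lacked a sample. Named rows were the members, up to 3 rows most correlated with each (mean of at least 10 CPM), rows sharing a seed, and 3 lists of 22, 12 and 1 rows. Alternatives were DESeq2 1.42.0, spike-in or total scaling, no filter, no replicate block, single libraries, single vectors and leaving out each clone. Sequences came from RefSeq, where all 5 member genes matched by symbol, and loci from GENCODE release 29.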

Additional observations from a re-analysis of the deposited data

Results flagged for a closer look

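The knockdown change of mir-7 differed by -1.31 on the log2 scale, deletion minus wild-type clones, with means of 0.15 and 1.46 and no overlap of the clones. In 8.85% of 667 rows every deletion clone likewise had a lower change than every wild-type clone. An exact permutation test over the 70 arrangements gave p = 0.0286, two-sided, the smallest possible. Any row without overlap of the clones gets this p, so it adds nothing to that separation. The mir-7 row was chosen with this difference known, so the p is no independent evidence for it. In the fit over all rows the same difference had an edgeR adjusted p of 0.0851.

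The library of wild-type clone 57 with control shRNA 1 stood apart in mir-1179, at 5.19 CPM against 1.59 to 1.72 CPM in the other 3 clones of that group. It held 7 counts, against 3 in each of the others. Chance flags about 1 in 20 groups of normally distributed values by the construction of this rule, a rate not measured for counts this low, and 32 groups were looked at.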

How the results depend on the processing

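For mir-7 the deletion effect under control shRNAs (15 alternatives, 1.36 to 2.13) and the knockdown effect in wild-type clones (12 alternatives, 1.07 to 2.06) kept direction and call in every alternative run. The knockdown effect over all clones was not called without the replicate block (0.63), with ERH shRNA 2 alone (0.44) or without clone 55 (0.59). With clones left out it ranged from 0.51 to 0.91. The interaction was called with DESeq2 (-1.21), total miRNA scaling (-1.49), no filter (-1.41), each library as its own sample (-1.33) and ERH shRNA 1 alone (-1.40), and without clone 52; with clones left out it ran from -1.55 to -0.99. In deletion clones ERH shRNA 2 alone turned the knockdown effect to -0.15, and under ERH shRNAs the deletion effect ran from -0.029 (without clone 34) to 0.58. For mir-1179, never called, the knockdown effect turned to 0.15 under spike-in scaling; in wild-type clones to 0.55 under spike-in scaling, 0.21 under total scaling and 0.15 with ERH shRNA 1 alone, with -0.53 to 0.25 when clones were left out; the interaction turned to 0.24 with ERH shRNA 2 alone and ran from -0.61 to 0.11 with clones left out. The wild-type knockdown change of the ratio was 2.24 with vector 2 of each arm, where clone 55 had 0 mir-1179 counts under ERH shRNA 2.

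Counts of called rows moved as follows. For the knockdown over all clones 244 became 37 without the replicate block and 159 to 230 with clones left out. In wild-type clones 192 became 94 without the replicate block, 121 with ERH shRNA 2 alone and 112 to 197 with clones left out. In deletion clones 65 became 102 with spike-in scaling, 109 with total scaling, 13 without the replicate block, 104 with single libraries, 33 with ERH shRNA 2 alone and 30 to 119 with clones left out. For the deletion under control shRNAs 139 became 223 with single libraries, 35 with control shRNA 2 alone and 83 to 129 with clones left out. Under ERH shRNAs 0 became 8 with DESeq2, 1 without the filter, 55 with single libraries and 0 to 1 with clones left out. For the interaction 0 became 16 with DESeq2, 29 with total scaling, 19 without the filter, 52 with single libraries, 14 with ERH shRNA 1 alone and 0 to 35 with clones left out. Between the control vectors 0 became 1 with DESeq2. The cause of these shifts was not tested, except that fewer clones and other designs also change how many rows pass the filter. Depth limits mir-1179 and mir-3529 throughout.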
